A study of Mus musculus with 6 samples.

Results

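The genes described here were listed around the amino acid supply programme that the transcription factor ATF4 drives. Whether ATF4 drives each of them in these cells was not tested. The 38 members are ATF4 with its partners and stress targets, enzymes of serine synthesis and one-carbon metabolism, amino acid transporters and aminoacyl-tRNA synthetases. They were taken by gene name, and all 38 were found among the 24182 genes of the deposited gene table. By role, 11 were stress factors and targets, 8 were serine and one-carbon enzymes, 7 were amino acid transporters and 12 were tRNA synthetases.

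Gene expression was measured by bulk RNA sequencing in Th17 cells of the mouse, a class of helper T cell that secretes interleukin 17. Sirt2, which encodes a NAD-dependent protein deacetylase, was disrupted with CRISPR/Cas9 in 3 libraries (Sirt2 KO), and 3 libraries came from control cells (Sirt2 WT). Cells of both genotypes received antibodies to CD3 (0.5 μg/mL) and CD28 (1 μg/mL) for 72 hours before RNA was taken, and both carry the treatment label "untreated". The guide, the mouse strain and age, and whether replicates were separate cultures or animals are not given in the labels, so p-values measure the spread between libraries, which may be technical.

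Translation of Atf4 mRNA rises when a kinase phosphorylates the initiation factor eIF2, an arrangement known as the integrated stress response. GCN2, encoded by Eif2ak4, is the kinase that senses uncharged tRNA. ATF4 pairs with C/EBP factors on a composite DNA element, the C/EBP-ATF response element or CARE, in genes for amino acid synthesis, uptake and tRNA charging. Activated T cells raise this programme because growth and division need amino acids, serine-derived one-carbon units and nucleotides.

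Some promoters of the members hold the core letters of this element. The core TGATGNAA was searched on both strands of RefSeq promoters (GRCm38.p6), each running from 250 bases before to 50 bases after a gene start. RefSeq promoters were matched for 30 of the 38 members, and 11 of these 30 genes (36.7%) held at least 1 core. Over all 27025 genes of the promoter table the share was 4.51%, and over all 32851 promoters it was 3.97%. The members were listed around ATF4, so a share above that of all genes may follow from the choice of the list. A match is a description of the letters and does not show that a factor bound there.

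The Asns promoter is shown because Asns, asparagine synthetase, is a textbook ATF4 target. It lies at chr6:7693210-7693459 on the minus strand of GRCm38.p6, read 5′ to 3′ along the gene. The core is in capitals, with its first base 23 bases before the RefSeq start. The gene spans given below can begin at another start. That of Asns reaches 7693254, so the core lies inside it.
Asns: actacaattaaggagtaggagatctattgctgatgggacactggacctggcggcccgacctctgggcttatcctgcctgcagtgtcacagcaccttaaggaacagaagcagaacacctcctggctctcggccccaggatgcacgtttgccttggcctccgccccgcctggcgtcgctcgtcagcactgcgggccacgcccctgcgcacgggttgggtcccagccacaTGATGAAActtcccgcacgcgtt

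The other matches are shown with up to 24 bases on each side, 5′ to 3′ along the gene, so that the cores of the different roles can be compared. Capitals mark the core, which reads TTNCATCA where it lies on the opposite strand, as in 10 of the 13 matches. Slc7a11 held a core on each strand within 1 window, and Aars held 2 cores in separate windows.
Atf3, chr1:191183412-191183467, minus: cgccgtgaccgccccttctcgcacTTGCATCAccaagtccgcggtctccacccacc
Chac1, chr2:119351025-119351080, plus: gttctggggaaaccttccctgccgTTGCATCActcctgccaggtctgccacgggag
Trib3, chr2:152344031-152344070, minus: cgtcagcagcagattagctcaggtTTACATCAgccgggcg
Slc7a11, chr3:50443629-50443703, minus: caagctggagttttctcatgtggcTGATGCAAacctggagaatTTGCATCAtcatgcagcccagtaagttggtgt
Slc1a4, chr11:20332686-20332741, minus: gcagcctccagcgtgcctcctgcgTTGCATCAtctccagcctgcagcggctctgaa
Yars, chr4:129189882-129189932, plus: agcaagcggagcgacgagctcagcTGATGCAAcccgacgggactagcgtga
Gars, chr6:55037947-55038002, plus: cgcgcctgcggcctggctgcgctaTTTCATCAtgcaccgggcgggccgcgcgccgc
Aars, first window, chr8:111033706-111033761, plus: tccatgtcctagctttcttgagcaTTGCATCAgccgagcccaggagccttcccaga
Aars, second window, chr8:111033827-111033871, plus: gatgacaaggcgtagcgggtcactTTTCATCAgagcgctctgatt
Iars, chr13:49682113-49682159, plus: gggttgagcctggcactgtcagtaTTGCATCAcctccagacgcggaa
Tars, chr15:11399642-11399697, minus: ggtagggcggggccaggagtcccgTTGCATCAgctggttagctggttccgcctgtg

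By role, the core was found in 4 of 10 matched stress factor genes (Atf3, Chac1, Trib3 and Asns) and in 2 of 5 matched transporters. It was found in 5 of 8 matched tRNA synthetases and in 0 of 7 matched serine and one-carbon enzymes. That none of the serine enzymes matched says only that these letters are absent from the window searched.

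Values are FPKM, which scales the fragments of a gene by transcript length and by the total of the library, so levels can be compared between genes. Each library summed to between 303772 and 321734 FPKM and held 10642 to 10958 genes at 1 FPKM or more, and its read depth cannot be told from FPKM. Sirt2 itself, the check of the labels, had 11.2, 13.5 and 10.9 FPKM in KO libraries and 20.7, 19.9 and 21.9 FPKM in WT libraries (log2 difference -0.76, limma adjusted p = 0.0429), so every KO library lay below every WT library. The 11 listed markers of Th17 and CD4 T cells all reached 1 FPKM in at least 3 libraries. KO replicate 3 stood apart from the other KO libraries, and its log2 values correlated across genes at 0.981 and 0.979 with KO replicates 1 and 2, against 0.990 with each WT library. Results that rest on it are given with and without it.

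Mean levels of the members ran from 0.435 FPKM for Slc7a11 to 239 FPKM for Phgdh, and no member differed between genotypes past the test. KO was compared with WT by limma on log2(FPKM + 1) over the 10873 genes with at least 1 FPKM in 3 or more libraries, and an adjusted p under 0.05 was called. Of the 38 members 37 were tested, and the member left out was Slc7a11. Called members numbered 0 higher and 0 lower in KO, against 0.110% of all tested genes. At an unadjusted limma p under 0.05 the members again numbered 0, against 5.61% of all tested genes. The smallest unadjusted p of a member was 0.127, and limma adjusted p-values ran from 0.843 to 0.993. Since a bulk library mixes cells, fewer cells that express a gene and less RNA per cell cannot be told apart in any of these levels.

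The size of difference that these libraries could still hold was narrow for most members. The median log2 difference over the 37 tested members was -0.019, beside -0.025 over all tested genes. Without KO replicate 3 these medians were -0.025 and -0.039. Single members ran from -0.34 for Aldh1l2 to 0.16 for Atf3. The 95% interval of the difference lay within 0.5 of 0 on the log2 scale for 35 of 37 members (94.6%), beside 82.0% of all tested genes, and within 0.25 of 0 for 23 members. As a set the tested members were also more abundant, with a median level of 40.5 FPKM against 8.01 FPKM over all tested genes. The stress factors had a lower median, 11.3 FPKM. Differences are on the log2(FPKM + 1) scale, which understates those of low genes.

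**Figure D1:**
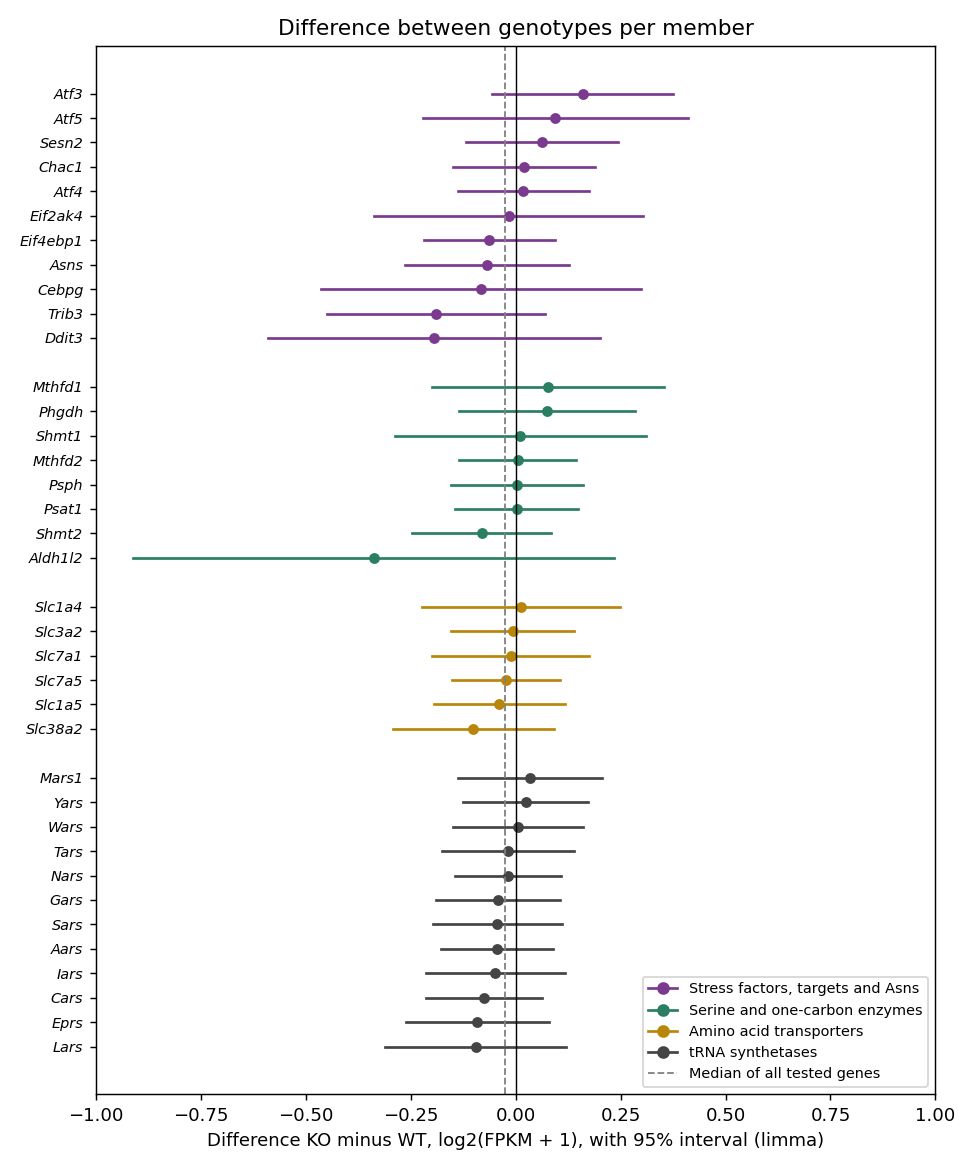
Difference of KO minus WT in log2(FPKM + 1) for each of the 37 tested members, with its 95% interval from limma, coloured by role; the dashed line is the median of all tested genes. Every interval spans 0, and the widest belong to Ddit3 and Aldh1l2.

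The stress factors and targets ranged over a wide span of levels, with Atf4 at the top. Atf4 (ENSMUSG00000042406, GRCm38 chromosome 15, 80255184 to 80257541, plus strand) had 219.5, 212 and 196 FPKM in KO libraries and 199.96, 205 and 214 FPKM in WT libraries. The groups overlapped, and KO replicate 1 was the highest and KO replicate 3 the lowest of all 6. The means were 209 ± 12.1 FPKM in KO and 206 ± 7.26 FPKM in WT (SD, n = 3 each). The log2 difference was 0.02 with a 95% interval of -0.14 to 0.17, a ratio of 0.909 to 1.13 (limma adjusted p = 0.965). ATF4 is controlled largely through translation of its mRNA, which these libraries do not measure.

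Asns (ENSMUSG00000029752, chromosome 6, 7675169 to 7693254, minus strand) had 82.4, 81.3 and 94.98 FPKM in KO libraries and 87.4, 86.2 and 97.4 FPKM in WT libraries. Replicate 3 was the highest of each genotype, and the groups overlapped. The log2 difference was -0.07 (95% interval -0.26 to 0.13, limma adjusted p = 0.894).

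Ddit3, which encodes the stress factor CHOP, had 10.7, 8.93 and 14.6 FPKM in KO libraries and 13.2, 11.2 and 14.7 FPKM in WT libraries. KO replicates 1 and 2 were the lowest of the 6, and KO replicate 3 lay beside the highest WT library. The log2 difference was -0.19 (95% interval -0.59 to 0.20, limma adjusted p = 0.871). Ddit3 overlaps Mars1 on the opposite strand, and the use of strand in counting is not given.

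Trib3, a pseudokinase that ATF4 and CHOP induce, had 14.6, 12.2 and 16.8 FPKM in KO libraries and 15.9, 16.8 and 17.0 FPKM in WT libraries. Again KO replicates 1 and 2 lay below all WT libraries and KO replicate 3 did not. The log2 difference was -0.19 (95% interval -0.45 to 0.07, limma adjusted p = 0.843).

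Atf3, a transcription factor induced downstream of ATF4, had 7.03, 7.29 and 7.57 FPKM in KO libraries and 5.88, 6.15 and 7.33 FPKM in WT libraries. WT replicate 3 reached into the KO range, so the groups overlapped. Its log2 difference of 0.16 (95% interval -0.06 to 0.38, limma adjusted p = 0.843) was the largest positive value among the members.

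Chac1, an enzyme that degrades glutathione, had 9.68, 9.55 and 9.06 FPKM in KO libraries and 9.29, 8.79 and 9.79 FPKM in WT libraries, with the groups interleaved. Eif4ebp1, a repressor of cap-dependent translation, had 38.0, 39.1 and 40.6 FPKM in KO libraries and 40.2, 43.7 and 39.2 FPKM in WT libraries, also overlapping. Their limma intervals were -0.15 to 0.19 and -0.22 to 0.09 on the log2 scale.

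The remaining stress factors were low and overlapped between genotypes. Atf5 (another ATF4-related factor), Cebpg (a C/EBP partner of ATF4), Sesn2 (an inhibitor of mTORC1 signalling) and Eif2ak4 ranged from 4.56 to 11.9 FPKM in KO libraries and from 4.54 to 11.7 FPKM in WT libraries. The role as a whole had a median log2 difference of -0.017, and of -0.087 without KO replicate 3. Its summed level was 410.1 ± 8.17 FPKM in KO and 415 ± 13.7 FPKM in WT (SD, n = 3 each), a description with no test. Atf5 overlaps the coding genes Nup62 and Il4i1 and is uncertain for the same reason as Ddit3.

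**Figure D2:**
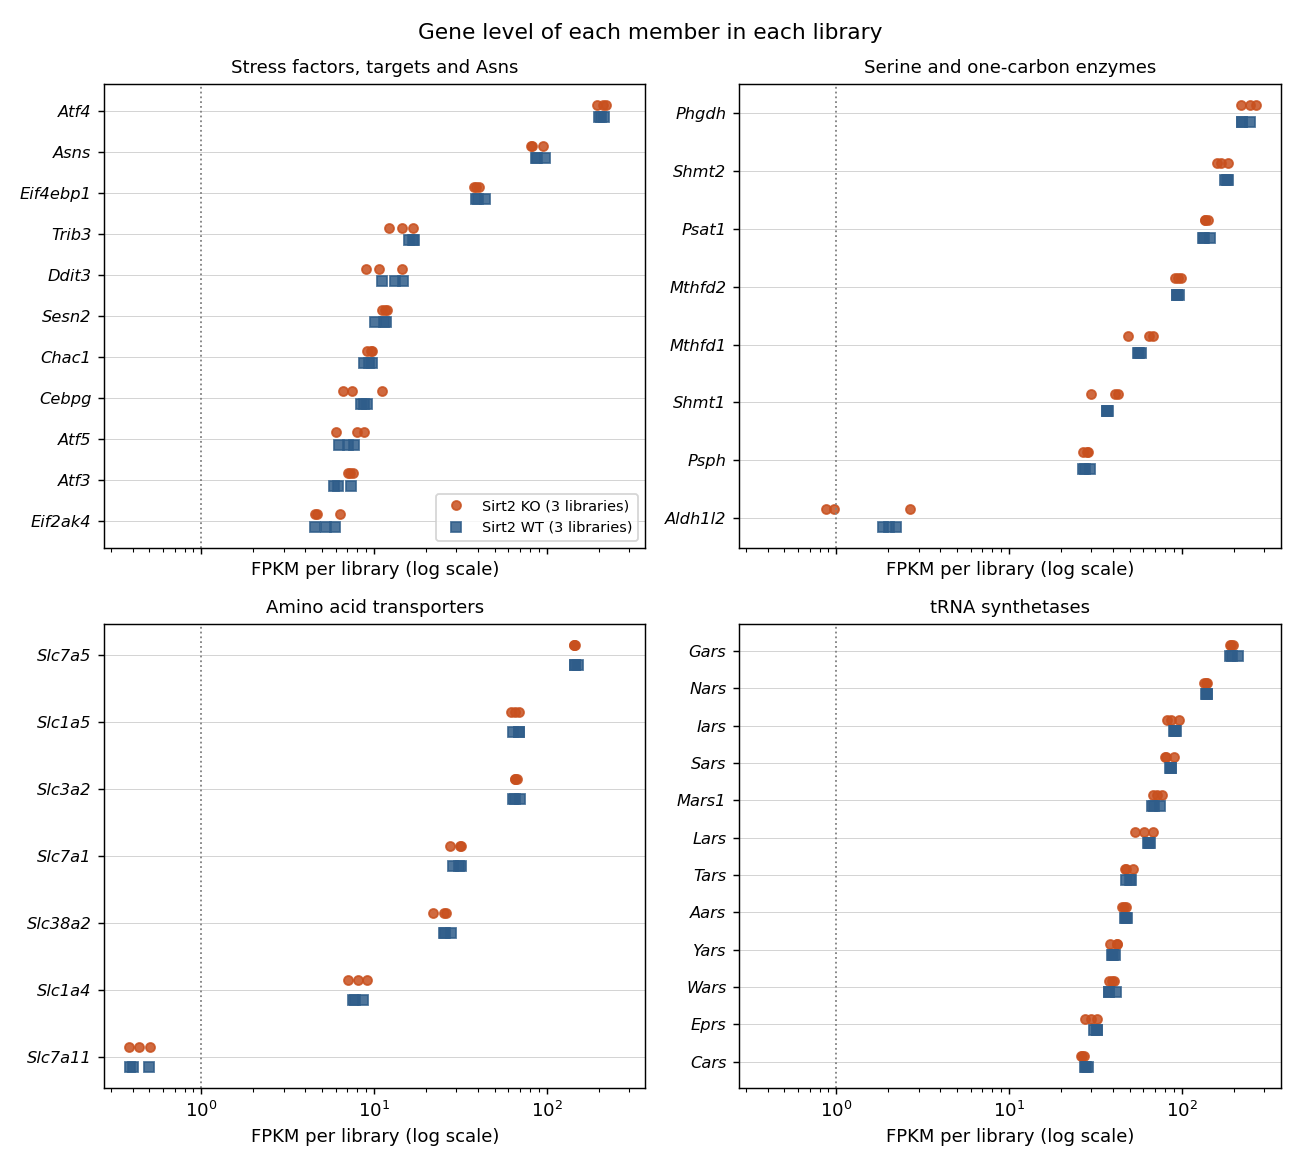
FPKM of each member in each library on a log axis, in 4 panels by role; circles are the 3 Sirt2 KO libraries and squares the 3 Sirt2 WT libraries, and the dotted line marks 1 FPKM. Phgdh, Atf4 and Gars lie near 200 FPKM in both genotypes, and Slc7a11 is the member whose values all lie below the dotted line.

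Of the enzymes that make serine, Phgdh and Psat1 were among the more abundant members and Psph was below the median of 40.5 FPKM. Phgdh (ENSMUSG00000053398, chromosome 3, 98313170 to 98339990, minus strand), which catalyses the first committed step of serine synthesis, had 249, 269 and 219 FPKM in KO libraries and 224, 224 and 249.8 FPKM in WT libraries. KO replicate 2 was the highest and KO replicate 3 the lowest library of all. The log2 difference was 0.07 (95% interval -0.13 to 0.28, limma adjusted p = 0.894).

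Psat1 (ENSMUSG00000024640, chromosome 19, 15904678 to 15947337, minus strand), the aminotransferase of the next step, had 142, 136 and 135 FPKM in KO libraries and 134, 133 and 146 FPKM in WT libraries. The KO values lay inside the WT range, and the 95% interval of the log2 difference was -0.14 to 0.15 (limma adjusted p = 0.993). Psph, the phosphatase that releases serine, ranged from 26.9 to 28.8 FPKM in KO libraries and from 26.6 to 29.5 FPKM in WT libraries.

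The enzymes that move one-carbon units from serine onto folate were likewise close in both genotypes. Shmt2, the mitochondrial serine hydroxymethyltransferase, had 169, 186 and 161 FPKM in KO libraries and 177, 185 and 183 FPKM in WT libraries (log2 difference -0.08, 95% interval -0.25 to 0.08, limma adjusted p = 0.872). Mthfd2, the mitochondrial dehydrogenase and cyclohydrolase of folate metabolism, had 99.4, 94.8 and 91.0 FPKM in KO libraries and 96.3, 93.9 and 93.9 FPKM in WT libraries. KO replicates 1 and 3 were the highest and the lowest Mthfd2 libraries.

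Mthfd1, the cytosolic folate enzyme of this step, had 64.7, 67.7 and 48.9 FPKM in KO libraries and 55.6, 56.4 and 58.1 FPKM in WT libraries. KO replicates 1 and 2 exceeded every WT library and KO replicate 3 fell short of every one. The log2 difference was 0.08 (95% interval -0.20 to 0.35, limma adjusted p = 0.909). Shmt1, the cytosolic serine hydroxymethyltransferase, ranged from 29.9 to 42.7 FPKM in KO libraries and from 37.1 to 37.3 FPKM in WT libraries.

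Aldh1l2, a mitochondrial dehydrogenase that oxidises formyl-tetrahydrofolate, was the lowest of the tested members, with 0.974, 0.876 and 2.67 FPKM in KO libraries and 2.01, 2.20 and 1.86 FPKM in WT libraries. KO replicates 1 and 2 were under every WT library and KO replicate 3 above them. Its log2 difference of -0.34 had the widest interval of all members, -0.91 to 0.23 (limma adjusted p = 0.870). The 8 enzymes had a median log2 difference of 0.0042, and of 0.033 without KO replicate 3. They summed to 778 ± 56.7 FPKM in KO and 770.2 ± 25.2 FPKM in WT (SD, n = 3 each). Shmt1, Shmt2, Psph, Aldh1l2, Psat1, Mthfd1 and Mthfd2 each overlap another annotated gene.

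Among the amino acid transporters the subunits of the large neutral amino acid exchanger LAT1 were high. Slc7a5, its transport subunit (ENSMUSG00000040010, chromosome 8, 121881150 to 121907694, minus strand), had 144, 147 and 145 FPKM in KO libraries and 145, 152 and 145 FPKM in WT libraries. The interval of its log2 difference, -0.15 to 0.10, was among the narrowest (limma adjusted p = 0.937). Slc3a2, the heavy chain CD98 that carries LAT1 to the surface, had 65.2, 67.2 and 65.2 FPKM in KO libraries and 63.4, 65.2 and 70.2 FPKM in WT libraries, with the KO values inside the WT range. Slc7a5 overlaps the annotated gene Gm20388.

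Slc1a5, a glutamine and neutral amino acid exchanger, had 65.6, 68.6 and 61.97 FPKM in KO libraries and 69.2, 63.9 and 68.7 FPKM in WT libraries. Slc7a1, a cationic amino acid carrier, had 31.98, 27.6 and 31.4 FPKM in KO libraries and 32.02, 31.0 and 28.7 FPKM in WT libraries. Slc38a2, a sodium-coupled neutral amino acid carrier, had 25.5, 22.1 and 26.2 FPKM in KO libraries and 27.8, 25.8 and 25.6 FPKM in WT libraries. All 3 overlapped between genotypes, and their limma intervals together spanned -0.29 to 0.18 on the log2 scale.

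Slc7a11, the cystine carrier of system xc-, was the lowest of the members, with 0.435, 0.379 and 0.507 FPKM in KO libraries and 0.404, 0.498 and 0.386 FPKM in WT libraries. Both groups lay under 1 FPKM and covered nearly the same span, so the gene was not tested. Slc1a4, a carrier of alanine, serine and cysteine, ranged from 7.07 to 9.10 FPKM in KO libraries and from 7.54 to 8.62 FPKM in WT libraries.

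The 7 transporters summed to 341, 339.5 and 339 FPKM in KO libraries and 346, 346 and 346 FPKM in WT libraries. The KO sums all lay below the WT sums, but no single transporter had its groups apart. Slc7a5 alone accounts for a large part of each sum, and this sum of chosen members was given no test. The median log2 difference of the 6 tested transporters was -0.018, and -0.030 without KO replicate 3.

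The cytosolic tRNA synthetases, which load amino acids onto tRNA, were moderately to highly expressed, with a median of 56.0 FPKM. Cars, the cysteine enzyme (ENSMUSG00000010755, chromosome 7, 143557230 to 143600090, minus strand), had 26.0, 26.5 and 27.3 FPKM in KO libraries and 27.7, 27.8 and 28.8 FPKM in WT libraries. It was the 1 member whose groups did not overlap, with every KO library below every WT library. Over all tested genes 6.88% had every KO library below every WT library and 4.28% had the reverse, so 1 and 0 of 37 members lie at or under the background. The log2 difference of Cars was -0.08 (95% interval -0.21 to 0.06, limma adjusted p = 0.870).

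Lars, the leucine enzyme, had 60.4, 53.4 and 68.6 FPKM in KO libraries and 64.5, 63.8 and 65.6 FPKM in WT libraries. Eprs, which joins the glutamate and proline enzymes in 1 protein, had 29.7, 27.7 and 32.2 FPKM in KO libraries and 32.4, 32.2 and 30.9 FPKM in WT libraries. Aars, the alanine enzyme, had 46.1, 47.4 and 44.9 FPKM in KO libraries and 47.0, 48.3 and 47.5 FPKM in WT libraries. KO replicate 3 was the highest library for Lars and the lowest for Aars, and the groups overlapped in all 3 genes (limma adjusted p of 0.870 to 0.896).

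The other 8 synthetase members, Gars, Iars, Mars1, Nars, Sars, Tars, Wars and Yars, charge glycine, isoleucine, methionine, asparagine, serine, threonine, tryptophan and tyrosine. Their levels ran from 38.1 to 198 FPKM in KO libraries and from 37.8 to 212 FPKM in WT libraries, and their groups overlapped. Differences over the 12 synthetases were small, from -0.10 to 0.03 on the log2 scale with a median of -0.043, and 9 of them were below 0. Without KO replicate 3 the median was -0.046. Their summed level was 868 ± 18.7 FPKM in KO and 888 ± 15.9 FPKM in WT (SD, n = 3 each). Aars, Wars, Yars and Mars1 each overlap another coding gene.

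The synthetases listed outside the 38 members place these levels in a wider set, which may not be complete. Over 20 cytosolic synthetase genes, the 12 members included, mean levels ran from 27.4 to 196.5 FPKM with a median of 62.2 FPKM. Over 17 mitochondrial synthetase genes, which charge tRNA for mitochondrial translation, they ran from 1.68 to 17.2 FPKM with a median of 5.66 FPKM. Gars and Kars, which each encode a cytosolic and a mitochondrial enzyme, were counted as cytosolic. With that choice the ranges of the listed genes did not overlap. The 3 scaffold genes of the multi-synthetase complex had 18.1 to 31.9 FPKM, with Aimp1 below the cytosolic range and Eef1e1 and Aimp2 inside it. Median log2 differences of KO minus WT were -0.028 for the cytosolic and -0.019 for the mitochondrial genes.

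**Figure D3:**
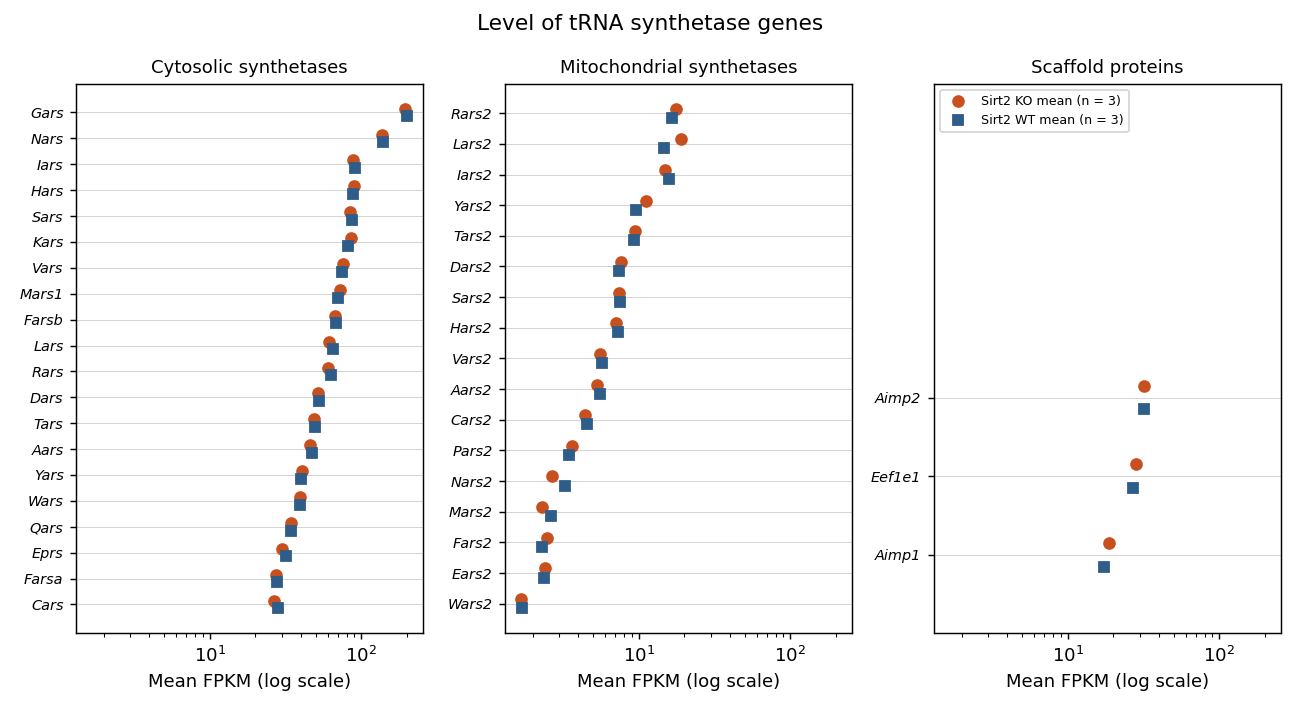
Mean FPKM (log axis) of cytosolic synthetases, mitochondrial synthetases and scaffold genes in Sirt2 KO (circles, n = 3) and Sirt2 WT (squares, n = 3). With Gars and Kars counted as cytosolic, the lowest listed cytosolic gene, at 27.4 FPKM, lies above the highest listed mitochondrial gene, at 17.2 FPKM. The genotypes lie close together within each gene.

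The differences were also set out by promoter core. The 10 tested members that held the core had a median log2 difference of -0.030, with values from -0.19 to 0.16. The 19 matched and tested members without it had a median of 0.0025, with values from -0.19 to 0.09. Limma called 0 of either set, and the difference between the sets was not tested.

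Other genes of the same pathways, 86 in the table by lists written with earlier results of these data known, gave the same count of calls. Of these, 75 were tested and 0 were called in either direction, by role 0 of 21 stress genes, 0 of 14 serine and one-carbon genes, 0 of 12 transporters and 0 of 28 synthetase genes. At an unadjusted limma p under 0.05 there was 1, Nars2, against 5.61% of all tested genes. Nars2, the mitochondrial asparagine enzyme, had 2.79, 2.76 and 2.52 FPKM in KO libraries and 3.36, 3.06 and 3.38 FPKM in WT libraries (log2 difference -0.21, limma adjusted p = 0.843). Its KO libraries all lay below its WT libraries.

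Ddit4, an inhibitor of mTORC1 that stress induces, had 89.4, 94.8 and 88.9 FPKM in KO libraries and 80.9, 83.1 and 84.6 FPKM in WT libraries. Every KO library exceeded every WT library, and the log2 difference was 0.13 (limma adjusted p = 0.843). Mat2a, which makes the methyl donor S-adenosylmethionine, had 69.2, 71.5 and 67.4 FPKM in KO libraries and 78.8, 73.8 and 75.6 FPKM in WT libraries, with the groups apart in the other direction (log2 difference -0.13, limma adjusted p = 0.843). Of the 75 tested genes, 2 had every KO library above every WT library and 3 had every KO library below, beside the background of 4.28% and 6.88%.

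The other genes of smallest p in each role overlapped between genotypes. Pck2, the mitochondrial phosphoenolpyruvate carboxykinase, had 11.04, 10.7 and 14.1 FPKM in KO libraries and 14.2, 13.5 and 14.5 FPKM in WT libraries. Mthfd1l, a mitochondrial formate-producing enzyme, had 54.0, 56.2 and 73.7 FPKM in KO libraries and 68.0, 66.9 and 69.0 FPKM in WT libraries. Yars2, the mitochondrial tyrosine enzyme, had 11.7, 12.4 and 9.64 FPKM in KO libraries and 9.98, 9.40 and 9.56 FPKM in WT libraries. In all 3, KO replicate 3 lay nearer to the WT libraries or past them.

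The glycine carrier Slc6a9 had 2.41, 2.31 and 3.48 FPKM in KO libraries and 3.30, 2.97 and 3.54 FPKM in WT libraries. Slc36a1, a lysosomal amino acid carrier, had 0.978, 1.31 and 1.34 FPKM in KO libraries and 1.32, 1.46 and 1.52 FPKM in WT libraries. Both had limma adjusted p-values of 0.865 to 0.870.

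The split of KO replicate 3 from the other KO libraries, which ran across the whole gene table, was also present in the programme. Each KO library was set against the mean of the WT libraries, and KO replicate 3 deviated with the opposite sign to both KO replicates 1 and 2 in 21 of 37 members (56.8%). Over all tested genes this held for 47.0%, close to the share of the members, and the difference between these shares was not tested. Within the small role groups, which were not tested against each other, it held for 7 of 11 stress factors, 6 of 8 serine and one-carbon enzymes, 0 of 6 tested transporters and 8 of 12 synthetases.

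The direction of the split differed between genes. Ddit3, Trib3, Cebpg, Eif2ak4, Asns and Aldh1l2, with the synthetases Lars, Eprs, Iars, Sars and Nars, were below the WT mean in KO replicates 1 and 2 and above it in KO replicate 3. Atf4, Chac1, Phgdh, Psph, Shmt1, Mthfd1 and Mthfd2, with the synthetases Mars1, Wars and Yars, were above it in KO replicates 1 and 2 and below it in KO replicate 3. The median deviation of the serine enzymes on the log2 scale was 0.057 and 0.043 in KO replicates 1 and 2, against -0.071 in KO replicate 3. That of the stress factors was -0.13, -0.067 and 0.098 in the same libraries.

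**Figure D4:**
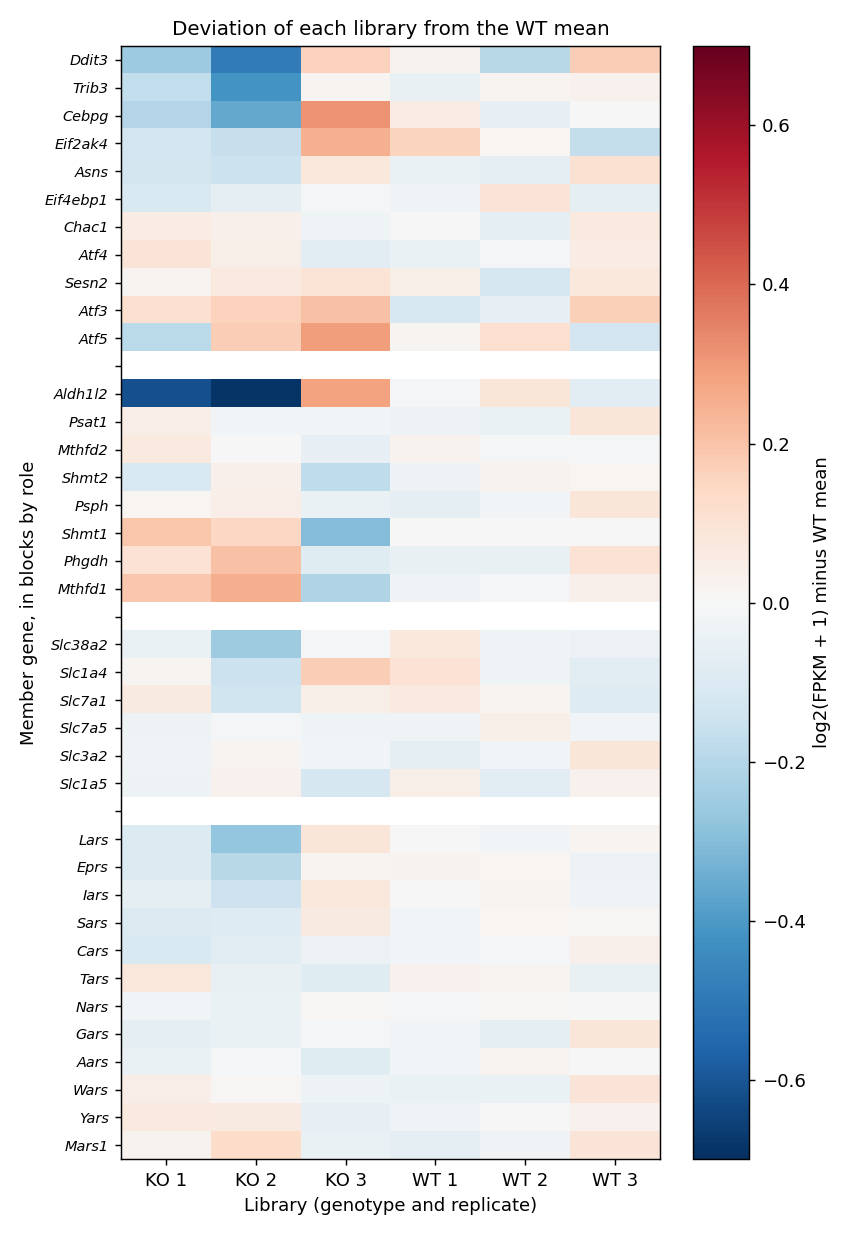
Deviation of each library from the WT mean in log2(FPKM + 1) for the 37 tested members, in blocks by role, with KO libraries to the left of WT libraries; red is above and blue below the WT mean. The columns of KO replicates 1 and 2 resemble each other, and KO replicate 3 has the opposite colour in 21 of the 37 rows.

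With KO replicate 3 left out, limma called 2 members. Mthfd1 rose by 0.22 on the log2 scale (adjusted p = 0.0388, limma, 2 KO against 3 WT libraries), and Aldh1l2 fell by 0.65 (adjusted p = 0.0164). In that fit 10.1% of all 10726 tested genes were called, so 2 of 37 members are no more than the background. Cebpg, Trib3, Shmt1 and Ddit3 came next, with log2 differences of -0.28, -0.30, 0.17 and -0.37 and limma adjusted p-values of 0.0566, 0.0614, 0.0644 and 0.0830. They were chosen for mention after their values were seen.

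Of the other pathway genes, the same fit called 2 higher and 6 lower of 75, beside the same 10.1%. Tyms, thymidylate synthase, and Yars2 rose by 0.24 and 0.29 on the log2 scale. The eIF2 kinase gene Eif2ak2, the sestrin Sesn3, the alanine aminotransferase Gpt2, Pck2, the proline enzyme Pycr1 and Mthfd1l fell, with log2 differences of -0.73 for Sesn3 to -0.30 for Mthfd1l and limma adjusted p-values of 0.00528 to 0.0442. Sesn3 had 9.71, 10.4 and 18.9 FPKM in KO libraries and 17.7, 17.9 and 16.4 FPKM in WT libraries, so KO replicate 3 lay above all WT libraries and the others below them.

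The libraries also differed in how their deviations ran with transcript length, and some markers of other cells differed between genotypes. Over all tested genes, the Spearman correlation of a library's deviation with transcript length was -0.33, -0.46 and 0.23 in KO replicates 1 to 3 and 0.25, 0.0049 and -0.24 in WT replicates 1 to 3. Over the 37 members it was -0.066, -0.38 and 0.15 in KO and 0.53, 0.29 and -0.57 in WT. These correlations run across genes, which are not independent replicates, and share the library. Removing each library's length trend left 0 members called.

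The markers of CD8 and NK cells, 7 of 8 in the table, summed to 24.1 to 27.1 FPKM in KO libraries and 8.96 to 9.83 FPKM in WT libraries, and 4 had every KO library above every WT library. Most of that gap was Gzmb, with 19.2, 18.1 and 11.6 FPKM in KO libraries and 2.66, 2.76 and 2.97 FPKM in WT libraries, while Cd8b1, Klrd1 and Prf1 overlapped between genotypes. The 9 myeloid markers summed to 40.4 to 40.5 FPKM in KO libraries and 30.1 to 31.4 FPKM in WT libraries, with 6 above in KO and with the monocyte gene Csf1r under 1 FPKM throughout. The 6 B cell markers summed to 26.6 to 32.5 FPKM in KO libraries and 22.9 to 23.2 FPKM in WT libraries. The 6 erythroid and fibroblast markers summed to 2.41 to 4.15 FPKM in KO libraries and 2.96 to 4.23 FPKM in WT libraries. No listed marker was at 0 in every library, and the part of these cells in the members' values was not tested.

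At the level of transcripts, the largest limma difference among the members was listed for Nars, the asparagine tRNA synthetase gene. It belonged to a transcript that passed the filter only through its WT libraries, and the gene level of Nars was even. The Nars gene had 137, 135 and 140.2 FPKM in KO libraries and 138, 140.3 and 139.5 FPKM in WT libraries. Transcript ENSMUST00000237369, annotated as subject to nonsense-mediated decay, was listed at 0, 0 and 0.309 FPKM in KO libraries and at 22.5, 9.44 and 10.6 FPKM in WT libraries. Its log2 difference was -3.70 (95% interval -4.55 to -2.85), and its limma adjusted p of 0.0557 over all 19184 tested transcripts missed the threshold. Only its WT libraries reached 1 FPKM, so it passed the filter through the group where it was high. The groups of a transcript that passes in this way cannot overlap, so its p-value and direction are not support for a difference. With no filter on low values its limma adjusted p was 0.259, and it was not tested when any WT library was left out.

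The protein-coding Nars transcript ENSMUST00000237400 was higher in every KO library than in any WT library, with 129, 177 and 170.3 FPKM in KO libraries and 94.1, 122 and 76.8 FPKM in WT libraries. Its log2 difference was 0.71 (95% interval 0.21 to 1.21, limma adjusted p = 0.767). The other abundant Nars transcripts varied widely inside each genotype. ENSMUST00000025483, also protein coding, had 88.5, 21.2 and 33.2 FPKM in KO libraries and 33.8, 88.4 and 70.8 FPKM in WT libraries, and ENSMUST00000237585, with a retained intron, had 2.52, 16.3 and 22.3 FPKM in KO libraries and 83.1, 7.86 and 75.8 FPKM in WT libraries.

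Weighted by transcript length, the decay-annotated transcripts together made up 0.00527%, 0.131% and 0.263% of Nars in KO libraries and 10.1%, 3.34% and 5.37% in WT libraries. Protein-coding transcripts made up 98.8%, 93.5% and 91.2% in KO libraries and 58.3%, 93.6% and 66.2% in WT libraries, so WT replicate 2 lay with the KO libraries. These transcripts share most of their exons, and how short reads were split between them is an estimate of the authors' tool. An exact 0 can be a failed estimate. Nars is set out here because of ENSMUST00000237369, so these shares were not tested and are not separate support for a difference.

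**Figure D5:**
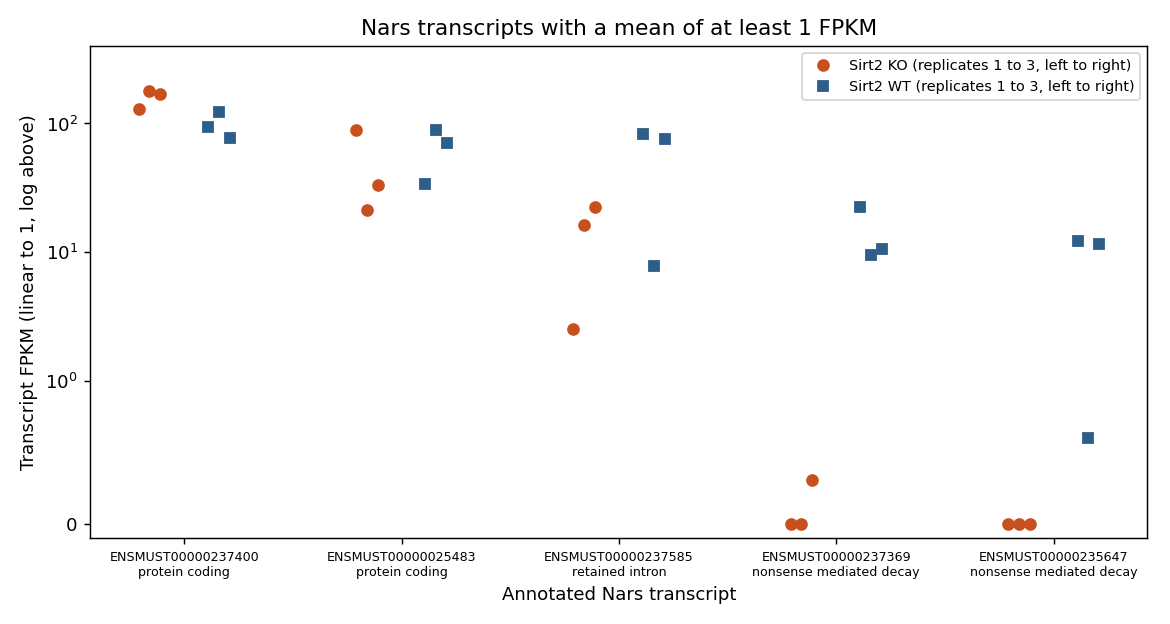
FPKM of the 5 Nars transcripts with a mean of at least 1 FPKM, on an axis that is linear to 1 and logarithmic above; circles are Sirt2 KO and squares Sirt2 WT libraries, replicates 1 to 3 from left to right. Both transcripts annotated for nonsense-mediated decay lie at or near 0 in the KO libraries, and WT values reach 22.5 FPKM. Both reach the mean of 1 FPKM through WT libraries alone, so their order is not support for a difference.

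Of 204 transcripts of the members, 69 in 37 genes were tested and 0 were called, against 0.0417% of all tested transcripts. At an unadjusted limma p under 0.05 there were 4, both Nars transcripts named first and 1 each of Slc1a5 and Eprs, against 5.57% of all tested transcripts. The retained-intron transcript ENSMUST00000127401 of Slc1a5 had 23.9, 20.6 and 22.0 FPKM in KO libraries and 31.5, 25.2 and 30.5 FPKM in WT libraries (log2 difference -0.37, limma adjusted p = 0.798). Another retained-intron transcript of Slc1a5, ENSMUST00000147814, had 0.525, 0.808 and 1.13 FPKM in KO libraries and 1.14, 1.75 and 1.25 FPKM in WT libraries. Both had every KO library below every WT library, the second by 1.13 against 1.14 FPKM. How often groups lie apart over all tested transcripts was not computed, so nothing rests on that order, here or for Nars and Eprs.

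For Eprs, the retained-intron transcript ENSMUST00000192284 had 2.61, 2.47 and 4.27 FPKM in KO libraries and 4.52, 4.96 and 4.77 FPKM in WT libraries (log2 difference -0.51, limma adjusted p = 0.885). For Psat1, the coding transcript ENSMUST00000162053 had 1.41, 2.95 and 1.23 FPKM in KO libraries and 2.08, 6.65 and 9.13 FPKM in WT libraries (log2 difference -1.16, limma adjusted p = 0.885). The Eprs groups did not overlap and the Psat1 groups did. In 35 of the 38 members the same transcript had the largest length-weighted share (FPKM times length) in all 6 libraries. The exceptions were Mars1, Sars and Slc1a4.

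In the authors' deposited table of transcripts, 6 transcripts of 5 members had a q-value under 0.05, against 1.82% of all 73900 transcripts listed. In that table the q-value was 1.10e-09 for the Nars transcript ENSMUST00000235647 and 0.00567 for ENSMUST00000237400. The authors' own column for significance marks ENSMUST00000237400 as no. The Nars transcript ENSMUST00000235647 was listed at 0 in every KO library and at 12.3, 0.599 and 11.5 FPKM in WT libraries, which left it under the filter of the limma fit. The other 4, of Iars, Tars, Sars and Slc7a1, had KO values under 1 FPKM in the authors' deposited table. That of Iars rested on 0.529 FPKM in KO replicate 3 and was at 0 in every other library. At gene level, 0 members had a q-value under 0.05 in the authors' deposited table, and the lowest was 0.9998.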

How the data were processed

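Bulk RNA sequencing was measured in 3 Sirt2 KO and 3 Sirt2 WT libraries, grouped by sample title. Tools listed in the submitters' processing notes, with no version or role, are HISAT2, StringTie, cutadapt, FastQC, edgeR and DESeq2. The authors deposited FPKM per gene and per transcript, with 1 column for each library, per the file headers. The deposited fold column is a ratio of KO over WT mean FPKM, and a deposited log2 column holds the logarithm of that ratio. Where a mean is 0 the fold is not a plain ratio. For the Nars transcript ENSMUST00000235647, at 0 in every KO library, it is 1.23e-05. The tool behind the p-value and q-value columns that the authors deposited is not stated. The deposited transcript columns also hold other numbers, namely positions, lengths and exon counts. The notes name mm9, but 73240 of 73430 transcripts found in GENCODE M21 had the same position on GRCm38, so coordinates are GRCm38. Each FPKM is relative to the total of its library, so a few abundant genes can shift the rest, and with no counts deposited no counting interval was computed.

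KO was compared with WT by limma 3.58.1 in R 4.3.3 on log2(FPKM + 1), with a mean trend in the variance, for features that reached 1 FPKM in 3 or more libraries, and p-values were adjusted by Benjamini-Hochberg over all tested features. The fit was tested on simulated data. Members were named by rule: 12 central genes, the 4 of smallest p in each role, the other pathway genes called or of the 2 smallest p in each role, and up to 2 transcripts for each of the 4 members of smallest transcript p. The members and lists were chosen with earlier results of these data known. Same-numbered KO and WT libraries did not deviate together (correlations 0.0067, -0.017 and -0.076), so the numbers were not used as pairs. Alternatives changed the scaling, the filter, the pseudocount, the variance model, the threshold, the replicate block and gene length, or left out each library in turn.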

Additional observations from a re-analysis of the deposited data

How the results depend on the processing

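No member was called under any alternative that kept all 6 libraries. Genes called numbered 12 as reported, 5 with a filter at 5 FPKM and 7 at an adjusted p under 0.01. Leaving out each library in turn gave 0 to 1088 called genes, 0 to 2 called members and 0 to 8 called other pathway genes. The highest of each came without KO replicate 3. Called genes numbered 0 without KO replicate 1, 6 without KO replicate 2, and 6, 1 and 4 without WT replicates 1, 2 and 3. Without the mean trend 1 transcript of a member was called, the Nars transcript ENSMUST00000237369 at a limma adjusted p of 0.0494. Over 9 alternatives its adjusted p ran from 0.0494 to 0.524. That transcript passed the filter only through its WT libraries, so the call is not support for a difference. The median log2 difference of the members was 0.023 after scaling libraries to a common median and 0.013 after removing the length trend, beside 0.011 and 0.00098 for all tested genes, so its sign changed under both. The cause was not tested.

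With the replicate number as a block, 13 genes, 0 members, 0 other pathway genes and 0 transcripts of members were called. The block changed no call of a member. For the 22 named members that were tested, 299 of 307 recomputed differences moved by less than 1 SD, 6 moved further and 2 were newly called. In 21 cases over 10 members the sign changed, with differences of at most 0.089 on the log2 scale. Changes of the filter, the variance model, the threshold or the replicate block leave a difference the same by construction. The 307 values therefore include some that could not move, and their count is no measure of stability. Read depth is unknown, and with it the counting error of the low members Slc7a11 and Aldh1l2.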
